A study of Mus musculus with 6 samples.

Results

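The apelin and adrenomedullin systems are 2 families of secreted peptides and receptors that act on vessels, and 7 of their genes were followed in the aorta of Apoe-/- mice given erythropoietin (EPO) or saline. The members, among 47643 genes in the table, are the ligand genes Apln and Adm, the receptor genes Aplnr and Calcrl, and the receptor partner genes Ramp1, Ramp2 and Ramp3. All 7 were in the table and all 7 had enough counts to be tested, among 16522 tested genes. They were listed by name and function but chosen by a reader of earlier results of the same comparison, in which Apln and Aplnr were higher and Adm lower with EPO. Their differences between EPO and Vehicle are therefore given as descriptions, with a standard error derived from the test statistic and no p. The EPO group (3 libraries) came from Apoe-/- mice injected intraperitoneally with recombinant human EPO at 5000 IU per kg per day, called a medium dose by the submitters, and the Vehicle group (3 libraries) from Apoe-/- mice injected with saline by that route. Both were treated for 4 weeks. Apoe-/- mice lack apolipoprotein E and develop high plasma cholesterol and atherosclerosis, and both groups carry this deletion, so EPO in mice with Apoe was not analysed here. The labels give no age or sex, and do not state that each library is from a separate animal, so any p below measures the spread between these 6 libraries, which may be technical. The series is about EPO and abdominal aortic aneurysm, and the labels do not say which of these aortas held an aneurysm. RNA came from the whole aorta, a mixture of cell types.

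Apelin is cut from a precursor and acts on the G protein-coupled receptor APJ, the product of Aplnr, which in the mouse is found mainly on endothelial cells, with the ligand made by the endothelial tip cells that lead growing vessel sprouts. Adrenomedullin is a vasodilator made by endothelium, smooth muscle and other cells, and hypoxia is a known inducer of both ligand genes. Its receptor is a complex: Calcrl encodes the seven-pass receptor, which reaches the cell surface only with a RAMP (receptor activity-modifying protein). With RAMP2 or RAMP3 the complex prefers adrenomedullin, and with RAMP1 it is the receptor of CGRP, a vasodilator peptide released by sensory nerves. Calcrl and Ramp2 are needed for the formation of lymphatic vessels in mouse embryos.

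The sequences shown first are those that stand for the ligands and partner with the clearest differences. The end of the Apln coding sequence (GENCODE M21, GRCm38, chrX:48028299-48028340, minus strand) is shown because it encodes apelin-13, the last 13 residues of a precursor of 77 residues. Capitals mark the stop codon.
Apln coding end: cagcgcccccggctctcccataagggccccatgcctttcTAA
The 250 bases before the start of Apln (chrX:48034854-48035103, minus strand), Adm (chr7:110627407-110627656, plus strand) and Ramp1 (chr1:91179572-91179821, plus strand) follow, from RefSeq on GRCm38.p6, because these 3 genes had no overlap between the groups and have an entry. In all, 5 of the 7 members matched an entry, and Aplnr and Ramp2 did not. The 4 patterns below were searched on both strands of the window from 250 bases before to 50 bases after the start: ACGTG and GCGTG, the core letters bound by hypoxia-inducible factors, TTCNNNGAA, the palindrome bound by the STAT factors that act below the EPO receptor, and the CArG box of serum response factor. ACGTG and GCGTG differ in their first letter, so they cannot match at the same bases of a strand. Capitals mark matches to any of the patterns.
Apln promoter: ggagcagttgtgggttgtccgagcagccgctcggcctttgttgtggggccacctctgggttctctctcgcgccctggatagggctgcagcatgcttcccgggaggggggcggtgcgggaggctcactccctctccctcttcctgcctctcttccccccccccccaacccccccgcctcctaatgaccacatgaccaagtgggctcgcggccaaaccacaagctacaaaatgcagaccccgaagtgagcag
Adm promoter: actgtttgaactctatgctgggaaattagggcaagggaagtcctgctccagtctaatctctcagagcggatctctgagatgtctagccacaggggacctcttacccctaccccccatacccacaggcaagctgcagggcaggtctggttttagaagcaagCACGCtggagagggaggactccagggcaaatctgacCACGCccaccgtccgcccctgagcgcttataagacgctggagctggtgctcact
Ramp1 promoter: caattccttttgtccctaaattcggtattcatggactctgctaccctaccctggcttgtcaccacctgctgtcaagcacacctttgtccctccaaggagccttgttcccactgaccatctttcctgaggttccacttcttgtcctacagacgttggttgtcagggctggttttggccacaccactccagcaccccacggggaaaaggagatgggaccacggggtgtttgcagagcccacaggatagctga
Adm held GCGTG 2 times on the minus strand, at bases -90 to -86 and -54 to -50 from the start, and Ramp3 held it 2 times (-219 to -215 and -65 to -61). Calcrl held it once after its start, at bases 22 to 26. None of the patterns was found in the windows of Apln and Ramp1. Of 32851 RefSeq promoter windows of the same length, 32.4% held GCGTG, 19.6% ACGTG, 43.8% either core, 8.3% the STAT palindrome and 1.63% a CArG box. These are matches of letters and not binding sites, and no match says only that the letters are not in the window.

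Total counts were 28798632 to 38502430 in the EPO libraries and 23278649 to 27904322 in the Vehicle libraries, and a gene with 0 counts could lie at up to 0.0779 to 0.129 CPM (counts scaled to the depth of the library) from counting error alone. All 7 smooth muscle and all 11 vascular endothelium markers that were listed as a check of the tissue were detected in every library. Other tissue moved with the groups. The summed level of 7 skeletal muscle genes was 287 to 2831 CPM in EPO and 15.6 to 22.2 CPM in Vehicle, highest in EPO 2, with all 7 genes higher past the threshold explained below, and that of 8 macrophage genes was 3748 to 8182 CPM in EPO and 1702 to 3495 CPM in Vehicle, highest in EPO 1. That of 8 white adipocyte genes was 1453 to 1634 CPM in EPO and 2089 to 5375 CPM in Vehicle, and 5 erythroid genes summed to 491 to 1462 CPM in EPO and 758 to 1547 CPM in Vehicle. Of 6 fibroblast genes 2 rose, the collagen gene Col1a1 (log2 fold change 2.90) and Lum (1.03, a call lost with any library left out), and of 6 Schwann cell and nerve genes 0 passed, while 4 were lower by DESeq2, 4 by edgeR with no filter, 3 with the replicate block or without Vehicle 2, and 1 with library size alone or a filter of 1 CPM (summed level 23.5 to 29.5 CPM in EPO and 43.9 to 121 CPM in Vehicle; Th at 0 in EPO 2). The part of these tissues in the differences below was not tested. In whole tissue, fewer cells of a type and less RNA per cell cannot be told apart.

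With EPO the apelin ligand and its receptor were both higher, adrenomedullin and the CGRP receptor partner Ramp1 were both lower, and Calcrl and Ramp2, the parts of the main adrenomedullin receptor, overlapped between the groups. The log2 fold changes, EPO over Vehicle, ran from 3.11 for Aplnr to -1.42 for Ramp1. In 4 of the 7 genes (2 higher, 2 lower) the adjusted p of edgeR's quasi-likelihood test was under 0.05, where 23.0% of all tested genes passed (12.9% higher and 10.1% lower). The same 4 genes had CPM values that did not overlap between the groups, which held for 43.8% of all tested genes. Since this contrast was used to choose the genes, nothing is read from these counts.

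**Figure D1:**
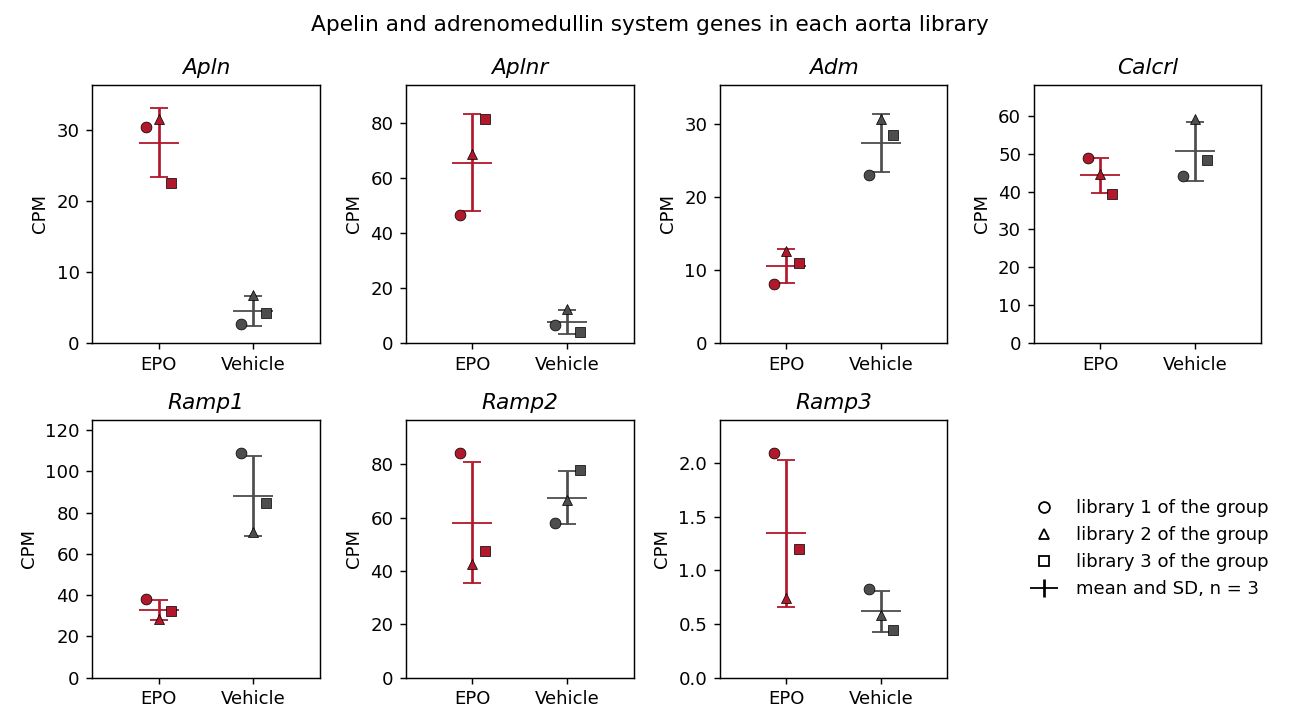
CPM of each of the 7 genes in the 3 EPO and 3 Vehicle libraries (points, shape by library number, which pairs nothing across groups), with the mean and SD of each group (n = 3). Apln and Aplnr lie higher and Adm and Ramp1 lower in every EPO library than in any Vehicle library, while Calcrl, Ramp2 and Ramp3 overlap.

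Apln, the apelin ligand gene (ENSMUSG00000037010, GRCm38 chromosome X, 48025146 to 48034853, minus strand), had 30.3, 31.5 and 22.6 CPM in EPO 1, 2 and 3, against 2.65, 6.80 and 4.18 CPM in Vehicle 1, 2 and 3. Every EPO library lay above every Vehicle library. The raw counts behind these values were 750 to 1086 in EPO and 61 to 175 in Vehicle. The means were 28.1 ± 4.87 CPM in EPO and 4.54 ± 2.10 CPM in Vehicle (SD, n = 3 each), a 6.19-fold difference (log2 fold change 2.63, SE 0.33).

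Aplnr, the apelin receptor gene (ENSMUSG00000044338, chromosome 2, 85136225 to 85139923, plus strand), had 46.6, 68.5 and 81.5 CPM in EPO 1, 2 and 3, against 6.65, 12.3 and 3.93 CPM in Vehicle 1, 2 and 3. The groups did not overlap, and of the 7 genes this one had the largest difference (8.60-fold; log2 fold change 3.11, SE 0.42). Its mean was 65.5 ± 17.7 CPM in EPO and 7.62 ± 4.26 CPM in Vehicle. Ligand and receptor did not keep the same order within EPO: EPO 3 was the lowest for Apln and the highest for Aplnr. In the Vehicle group Vehicle 2 was the highest for both. Per length of transcript, the ratio of Aplnr to Apln was 1.31, 1.85 and 3.08 in the EPO libraries and 2.14, 1.54 and 0.802 in the Vehicle libraries, so the ratio overlapped between the groups.

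Adm, the adrenomedullin gene (ENSMUSG00000030790, chromosome 7, 110627661 to 110629820, plus strand), had 8.03, 12.6 and 10.9 CPM in EPO 1, 2 and 3, against 23.0, 30.7 and 28.5 CPM in Vehicle 1, 2 and 3. All EPO libraries lay below all Vehicle libraries, and the means were 10.5 ± 2.33 CPM in EPO and 27.4 ± 3.96 CPM in Vehicle (SD, n = 3 each; log2 fold change -1.38, SE 0.20), a 2.60-fold lower level with EPO. The balance of the 2 ligands differed: in Vehicle, Apln was far below Adm per length of transcript, and in EPO they were near each other. Apln over Adm was 1.67, 1.10 and 0.910 in the EPO libraries and 0.0509, 0.0979 and 0.0647 in the Vehicle libraries. With the union of exons as the length, the ratio was 1.06 to 1.94 in EPO and 0.0593 to 0.114 in Vehicle.

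Calcrl, the receptor shared by adrenomedullin and CGRP (ENSMUSG00000059588, chromosome 2, 84330626 to 84425411, minus strand), had 48.8, 44.6 and 39.4 CPM in EPO 1, 2 and 3, against 44.2, 59.3 and 48.3 CPM in Vehicle 1, 2 and 3. The groups overlapped, with means of 44.3 ± 4.66 CPM in EPO and 50.6 ± 7.79 CPM in Vehicle (log2 fold change -0.19, SE 0.15). Of the 7 genes it had the smallest spread within groups (SD of log2 CPM 0.19).

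Ramp1, the partner that turns Calcrl into a CGRP receptor (ENSMUSG00000034353, chromosome 1, 91179822 to 91225196, plus strand), had 38.1, 28.5 and 32.1 CPM in EPO 1, 2 and 3, against 109, 70.5 and 84.8 CPM in Vehicle 1, 2 and 3. Every EPO library was below every Vehicle library. The means were 32.9 ± 4.82 CPM in EPO and 88.0 ± 19.4 CPM in Vehicle (SD, n = 3 each; log2 fold change -1.42, SE 0.19), a 2.68-fold lower level with EPO.

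Ramp2, the partner that makes Calcrl an adrenomedullin receptor (ENSMUSG00000001240, chromosome 11, 101246028 to 101259546, plus strand), had 84.2, 42.7 and 47.7 CPM in EPO 1, 2 and 3, against 58.2, 66.5 and 77.9 CPM in Vehicle 1, 2 and 3. EPO 1 was above all Vehicle libraries and EPO 2 and EPO 3 were below all of them, so the mean difference (58.2 ± 22.7 CPM in EPO and 67.5 ± 9.85 CPM in Vehicle; log2 fold change -0.21, SE 0.26) turned on EPO 1. Without that library the log2 fold change was -0.59. The annotation of Ramp2 includes a transcript that runs into Vps25 and shares 1103 of its 3301 exonic bases with it, so its counts are uncertain.

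Ramp3, the other adrenomedullin partner (ENSMUSG00000041046, chromosome 11, 6658521 to 6677475, plus strand), was scarce, with 75, 22 and 40 counts in EPO 1, 2 and 3 and 19, 15 and 13 counts in Vehicle 1, 2 and 3. In CPM this was 2.09, 0.747 and 1.20 in EPO against 0.826, 0.583 and 0.449 in Vehicle, with EPO 2 below Vehicle 1. The log2 fold change was 1.13 with an SE of 0.47, and at this depth a difference was not clear of the spread. It shares 101 of its 1380 exonic bases with the opposite-strand gene Gm11978, and whether counting used strand is not known.

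The receptor parts could be set side by side per length (CPM per kb of the principal transcript). Ramp2 was at 49.4 ± 19.2 in EPO and 57.3 ± 8.36 in Vehicle, Ramp1 at 14.2 ± 2.07 in EPO and 37.9 ± 8.34 in Vehicle, Calcrl at 9.07 ± 0.955 in EPO and 10.4 ± 1.60 in Vehicle, and Ramp3 at 1.09 ± 0.555 in EPO and 0.502 ± 0.155 in Vehicle. Ramp1 was above Calcrl in every library, by 1.34 to 1.71 times in EPO and 2.50 to 5.17 times in Vehicle, and these ranges did not overlap. As a share of the summed level of the 3 RAMP genes, Ramp1 made up 18.3%, 25.0% and 25.0% in the EPO libraries and 48.3%, 34.7% and 35.4% in the Vehicle libraries. Ramp2 made up 79.8%, 73.8% and 73.2% in EPO and 51.0%, 64.7% and 64.2% in Vehicle. Neither share overlapped between the groups, whereas the ratio of Ramp2 to Calcrl overlapped (3.97 to 7.16 in EPO and 4.65 to 6.68 in Vehicle).

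These shares depend on the length taken for each gene, but the side on which the groups lay did not. With the union of all annotated exons, which is longest for Ramp2, Ramp1 took 31.8% to 41.2% of the RAMP level in EPO and 53.1% to 66.4% in Vehicle. By that length Ramp1 was above Ramp2 in the Vehicle mean (29.1 ± 6.41 CPM per kb for Ramp1 and 20.5 ± 2.98 for Ramp2), and by the principal transcript Ramp2 was above Ramp1, so the order of these 2 genes in Vehicle was not settled. In the EPO mean Ramp2 was above Ramp1 by either length. Among the other members, Aplnr stood at 17.7 ± 4.78 CPM per kb in EPO and 2.06 ± 1.15 in Vehicle, Apln at 8.93 ± 1.55 in EPO and 1.44 ± 0.667 in Vehicle, and Adm at 7.58 ± 1.67 in EPO and 19.7 ± 2.85 in Vehicle. In EPO, Calcrl, Apln and Adm did not differ beyond their spread, and in Vehicle neither did Aplnr and Apln. Aplnr per length was 1.26 to 2.73 times Calcrl in EPO and 0.108 to 0.274 times Calcrl in Vehicle.

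**Figure D2:**
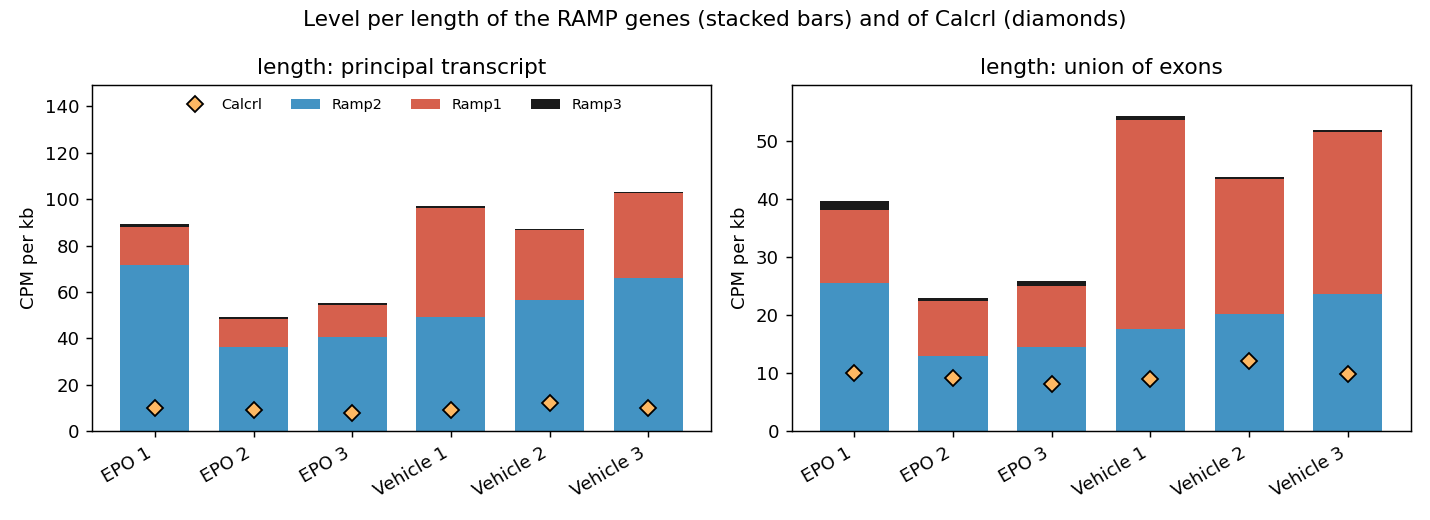
Level per length, in CPM per kb, of Ramp2, Ramp1 and Ramp3 (stacked bars) and of Calcrl (diamonds) in each library, with the principal transcript (left) and the union of exons (right) as the length. The Ramp1 part is smaller in the 3 EPO libraries than in the 3 Vehicle libraries by either length, and Calcrl stays between 8.08 and 12.1 CPM per kb.

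Next, the members were set beside marker genes of the cells known to express them. A value without a unit in brackets after a list gene is its log2 fold change, EPO over Vehicle. Over all tested genes 12.9% were higher and 10.1% lower, the shares to set beside each list count. The lists were chosen with earlier results of these data known, so their counts and p are descriptions. Where EPO 1 and EPO 2 are both left out, only EPO 3 stands for the EPO group. A call lost in that fit cannot be told apart from the loss of replication in EPO. Of 11 vascular endothelium genes 2 rose, 1 fell and 8 did not pass (median log2 fold change 0.23, against 0.01 over all tested genes), and their summed level was 1521 to 2264 CPM in EPO and 1799 to 2005 CPM in Vehicle. Endothelial cadherin Cdh5 rose (301 ± 57.1 CPM in EPO and 165 ± 13.1 CPM in Vehicle; edgeR adjusted p = 0.0117), as did the VEGF receptor Kdr (75.6 ± 14.0 CPM in EPO and 37.7 ± 9.20 CPM in Vehicle; edgeR adjusted p = 0.0173), and the adhesion protein Pecam1 fell (364 ± 34.3 CPM in EPO and 543 ± 20.2 CPM in Vehicle; edgeR adjusted p = 0.0242). Without Vehicle 1, and without EPO 1 and EPO 2 together, all 3 missed the threshold, and Pecam1 also with the replicate block or without EPO 2, EPO 3, Vehicle 2 or Vehicle 3 (edgeR adjusted p from 0.0515 to 0.0827 for Pecam1, up to 0.0662 for Cdh5 and up to 0.177 for Kdr). Per 1000 CPM of the summed endothelial genes, Apln stood at 13.4, 18.0 and 14.8 CPM in the EPO libraries and 1.43, 3.78 and 2.08 CPM in the Vehicle libraries, and Aplnr at 20.6, 39.1 and 53.6 CPM in EPO and 3.59, 6.83 and 1.96 CPM in Vehicle. Neither overlapped between the groups on that scale, whose denominator holds genes that were higher and genes that were lower with EPO. The part of endothelial content in these levels was not tested. Calcrl (21.5 to 25.9 in EPO and 23.9 to 33.0 in Vehicle) and Ramp2 (24.3 to 37.2 in EPO and 31.5 to 38.8 in Vehicle) overlapped on that scale.

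Aplnr is known from venous and sprouting endothelium, and genes of several kinds of endothelium were listed. Of 6 venous genes 1 rose, Nrp2 (log2 fold change 1.85, edgeR adjusted p = 0.00188), a coreceptor for semaphorins and VEGF-C, and 1 fell, the venous transcription factor Nr2f2 (-0.68, edgeR adjusted p = 0.0373), which missed the threshold with any library but EPO 3 left out (up to 0.283 over its alternatives). Ephb4 did not pass (0.44, edgeR adjusted p = 0.0520). Of 6 arterial genes 0 rose and 1 fell, the kinase gene Bmx (10.2 ± 1.65 CPM in EPO and 26.2 ± 1.43 CPM in Vehicle; edgeR adjusted p = 0.00263). Hey1 (0.84, SE 0.31) and Sox17 (1.03, SE 0.53) did not pass. Sox17 stood at 87.87, 25.94 and 18.52 CPM in EPO 1, 2 and 3, against 18.99, 21.85 and 24.05 CPM in Vehicle 1, 2 and 3. For Sox17, EPO 2 was above and EPO 3 below all Vehicle libraries, so its mean difference turned on EPO 1. Of 7 lymphatic endothelium genes 6 rose and 0 fell (median log2 fold change 1.44), with summed levels of 286 to 436 CPM in EPO and 126 to 199 CPM in Vehicle. The other gene, Lyve1, was lower but did not pass (34.8 CPM in EPO and 51.7 CPM in Vehicle; -0.57, SE 0.19), and 1 gene of the list fell by DESeq2. Among those that rose were the lymphatic regulator Prox1 (2.46), the VEGF-C receptor Flt4 (1.71) and the matrix protein Mmrn1 (1.44), at edgeR adjusted p of 0.00263, 0.00251 and 0.00316. Without Vehicle 1 or Vehicle 2, 4 of the 7 rose, with 1 falling without Vehicle 1. Per 1000 CPM of the lymphatic genes, Aplnr was at 108, 240 and 187 CPM in EPO and 52.8, 71.0 and 19.8 CPM in Vehicle. The part of lymphatic endothelium in the level of Aplnr was not tested.

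Ramp1 was set beside the genes of smooth muscle. All 7 smooth muscle genes fell (median log2 fold change -1.53), and their summed level was 7151 to 9136 CPM in EPO and 19590 to 27950 CPM in Vehicle, and 5 of the 7 fell in the fit without Vehicle 1. Cnn1, a contractile regulator (343 ± 41.4 CPM in EPO and 990 ± 150 CPM in Vehicle), and Myocd, the coactivator of contractile genes (7.59 ± 0.310 CPM in EPO and 20.2 ± 2.94 CPM in Vehicle), had edgeR adjusted p of 0.00277 and 0.00262. Per 1000 CPM of these genes Ramp1 stood at 5.32, 3.87 and 3.52 CPM in the EPO libraries and 3.89, 3.60 and 3.63 CPM in the Vehicle libraries. The groups overlapped on this scale. The part of smooth muscle content in the level of Ramp1 was not tested.

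Adm is made by many cell types, and it was set beside the genes of 4 cell types. Of 8 white adipocyte genes 5 fell and 0 rose (median log2 fold change -1.52), among them the adipokine Retn and the lipid droplet protein Plin1 (-2.13 and -1.72; edgeR adjusted p = 0.00105 and 0.0111), and 8 fell by DESeq2. With EPO 2 left out 2 fell, and with EPO 3, Vehicle 1 or Vehicle 2 left out 3 fell. Per 1000 CPM of these genes Adm was at 4.92, 8.61 and 7.53 CPM in EPO and 7.04, 5.71 and 13.6 CPM in Vehicle, with overlap. Per 1000 CPM of smooth muscle genes it overlapped as well, at 1.12 to 1.72 CPM in EPO and 0.823 to 1.57 CPM in Vehicle. Of 8 macrophage genes 1 rose, Adgre1 (log2 fold change 1.55, edgeR adjusted p = 0.0161, and 0.0983 at most over its alternatives, missing the threshold without Vehicle 1, without EPO 1 and EPO 2, and with the replicate block; 5 of the 8 rose by DESeq2), and against these genes Adm stayed lower, at 0.982 to 3.06 CPM in EPO and 8.15 to 13.5 CPM in Vehicle. Against the vascular endothelium genes it was at 3.55 to 7.20 CPM in EPO and 12.4 to 17.1 CPM in Vehicle. Which cells carried the lower Adm was not tested.

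**Figure D3:**
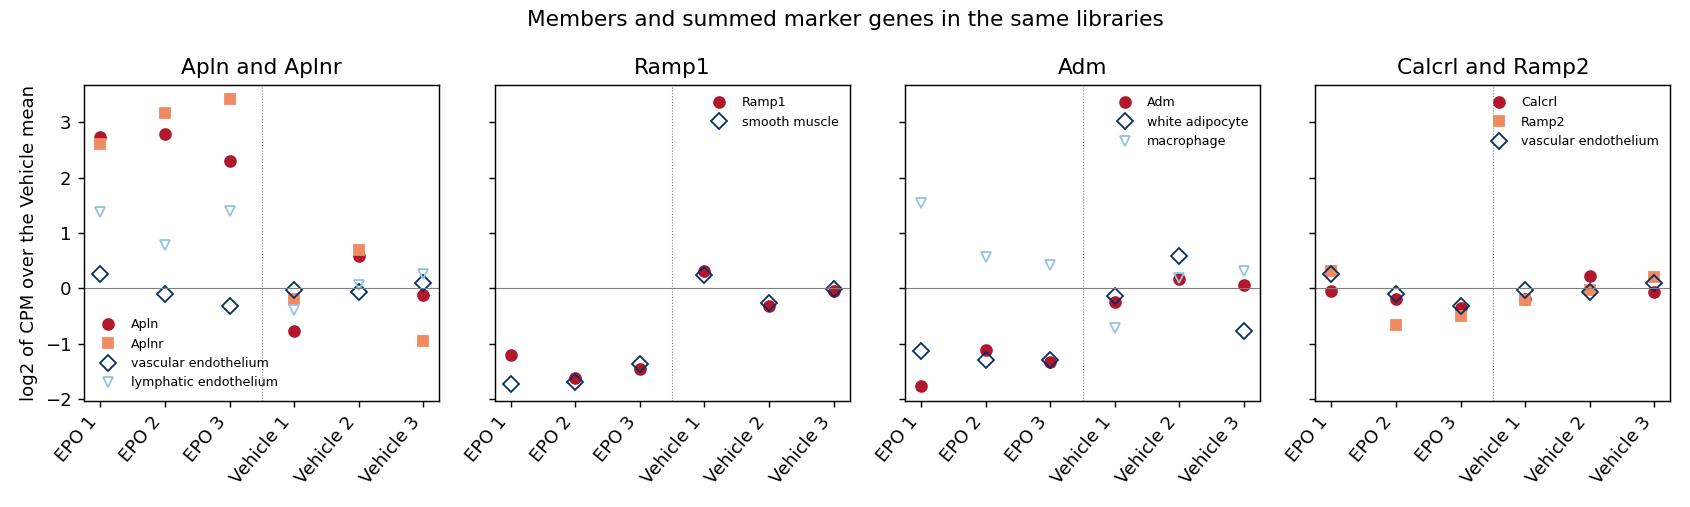
Log2 of the CPM of members (filled points) and of the summed CPM of marker lists (open points) over the mean of the 3 Vehicle libraries, in each library. Apln and Aplnr lie far above the endothelial sums in EPO, Ramp1 lies near the smooth muscle sum, Adm lies near the adipocyte sum and below the macrophage sum in EPO, and Calcrl and Ramp2 lie near the endothelial sum.

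Other genes of the apelin system were taken from a list of partners. Of 11 partners listed, Klkb1 was not analysed here, and 2 had too few counts to test, among them the second APJ ligand Apela (1 count in EPO and 4 in Vehicle). Of the 8 tested, 2 rose and 1 fell (median log2 fold change 0.28), where 12.9% of all tested genes were higher and 10.1% lower. Gnai1, a G protein subunit of the class through which APJ signals, fell (31.6, 42.9 and 49.4 CPM in EPO 1, 2 and 3, against 107, 126 and 115 CPM in Vehicle 1, 2 and 3; edgeR adjusted p = 0.00289), while the related Gnai2 and Gnai3 did not pass (log2 fold changes 0.28 and 0.27). Arrb2, an arrestin that binds activated receptors, rose 2.59-fold (118 ± 40.2 CPM in EPO and 45.7 ± 11.1 CPM in Vehicle; edgeR adjusted p = 0.0139, and 0.0553 at most without Vehicle 1 or without EPO 1 and EPO 2). Furin, a protease that cuts peptide precursors, rose by 0.45 on the log2 scale (edgeR adjusted p = 0.0380), a call that was lost in 9 of 14 alternatives (up to 0.153), among them leaving out EPO 2, EPO 3 or any Vehicle library. Mme, or neprilysin, which degrades several vasoactive peptides, did not pass (-0.49, SE 0.31).

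Of 16 partners of adrenomedullin and CGRP, 12 were tested, of which 1 rose and 3 fell (median log2 fold change -0.03). The peptide genes were nearly silent in RNA of the aorta: the CGRP gene Calca had 19 counts in EPO and 11 in Vehicle, Calcb 5 in EPO and 5 in Vehicle, and Adm2 11 in EPO and 0 in Vehicle, each over 3 libraries. The receptor gene Calcr had 6 in EPO and 0 in Vehicle. Pam, the enzyme that amidates peptide hormones such as adrenomedullin, fell (684, 888 and 982 CPM in EPO 1, 2 and 3, against 1777, 1682 and 1618 CPM in Vehicle 1, 2 and 3; edgeR adjusted p = 0.0103). Adcy4, an adenylyl cyclase, rose (64.5 ± 10.4 CPM in EPO and 36.5 ± 1.23 CPM in Vehicle; edgeR adjusted p = 0.00787). Prkaca, a catalytic subunit of protein kinase A, also fell and was named after its value was seen (log2 fold change -0.77, edgeR adjusted p = 0.0154). Ackr3, a scavenger receptor that takes up adrenomedullin, did not pass (-0.19, SE 0.17), nor did the endothelial nitric oxide synthase Nos3 (0.60, SE 0.36). Without EPO 1 and EPO 2 none of these 12 genes passed, and Adcy4 and Pam were then at edgeR adjusted p of 0.0541 and 0.0605.

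RAMPs also bind other receptors, and of 8 such genes 5 were tested. Gper1, the membrane estrogen receptor, rose 2.97-fold (8.67, 7.20 and 5.35 CPM in EPO 1, 2 and 3, against 2.69, 2.06 and 2.38 CPM in Vehicle 1, 2 and 3; edgeR adjusted p = 0.00626, and 0.0719 without EPO 1 and EPO 2). Pth1r, the parathyroid hormone receptor, rose (47.1 ± 9.56 CPM in EPO and 26.2 ± 3.36 CPM in Vehicle; edgeR adjusted p = 0.0150, and 0.0832 at most without Vehicle 2 or without EPO 1 and EPO 2). The glucagon receptor gene Gcgr, under 1 CPM in all libraries, fell (-1.47, edgeR adjusted p = 0.0381), a call lost in 9 of 14 alternatives (up to 0.215), among them every single library left out but EPO 1. The VIP receptors Vipr1 and Vipr2 did not pass.

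Hypoxia is a known inducer of Apln and Adm, and a hypoxia list was set beside them. Of 17 genes 2 rose and 3 fell (median log2 fold change 0.03), where 23.0% of all tested genes passed in either direction. The part of hypoxia in the levels of the ligands was not tested. The targets Vegfa (126 ± 30.5 CPM in EPO and 124 ± 23.6 CPM in Vehicle), Slc2a1 (54.3 ± 1.21 CPM in EPO and 54.9 ± 9.69 CPM in Vehicle) and Car9 (3.48 ± 0.174 CPM in EPO and 3.67 ± 0.719 CPM in Vehicle) had log2 fold changes of 0.03, -0.02 and -0.08. These targets were not picked by smallest p. The 12 genes of the list that did not pass ran from -0.34 (Egln1) to 0.54 (Ddit4). Hif1a, the oxygen-regulated factor, rose (0.69, edgeR adjusted p = 0.0378, and 0.154 at most over its alternatives), as did the collagen prolyl hydroxylase P4ha1 (0.78, edgeR adjusted p = 0.0186), and the mitophagy gene Bnip3 fell (-0.77, edgeR adjusted p = 0.0275). The other falls, named after their values were seen, were Epas1 (-0.60; edgeR adjusted p = 0.0403), which encodes another oxygen-regulated factor, and Ndrg1 (-0.53; edgeR adjusted p = 0.0465). Hif1a missed the threshold without EPO 2, EPO 3 or any Vehicle library, P4ha1 without any Vehicle library (up to 0.0900) and Bnip3 without EPO 1, EPO 3, Vehicle 1 or Vehicle 2 (up to 0.128), and with single libraries left out 0 to 2 of the list rose and 0 to 2 fell.

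Apln is usually counted among the genes of endothelial tip cells. Of 11 others listed, 7 rose and 0 fell (median log2 fold change 1.18), where 12.9% of all tested genes were higher and 10.1% lower. This list too was chosen with earlier results of these data known. Nid2, a basement membrane protein, stood at 86.5, 84.4 and 71.6 CPM in EPO 1, 2 and 3, against 12.9, 14.3 and 12.2 CPM in Vehicle 1, 2 and 3 (log2 fold change 2.62, the same size as that of Apln; edgeR adjusted p = 0.000432). The netrin receptor gene Unc5b rose 3.23-fold (195 ± 19.6 CPM in EPO and 60.4 ± 9.33 CPM in Vehicle; edgeR adjusted p = 0.00177) and placental growth factor Pgf rose 3.25-fold (23.9 ± 5.28 CPM in EPO and 7.35 ± 0.947 CPM in Vehicle; edgeR adjusted p = 0.00289). Dll4, Cxcr4, Plaur and Trp53i11 were the other 4 that rose, while Esm1 (1.18, SE 0.45) and Angpt2 (0.07, SE 0.28) did not pass. With single libraries left out 7 or 8 rose, and 5 rose without EPO 1 and EPO 2. Several of these genes are also expressed outside endothelium, and the summed levels of the macrophage and lymphatic lists were higher in every EPO library than in any Vehicle library. Their part was not tested. Exons of Furin, Nos3, Pth1r, Hif1a, Bnip3, Ndrg1, Slc2a1, Car9, Nr2f2, Ephb4, Sox17, Prox1, Nid2, Dll4 and Dusp8 overlap a gene on the opposite strand. Those of Pam, Arrb2, Hif1a and Apela overlap a gene on the same strand. The counts of all these genes are less certain.

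**Figure D4:**
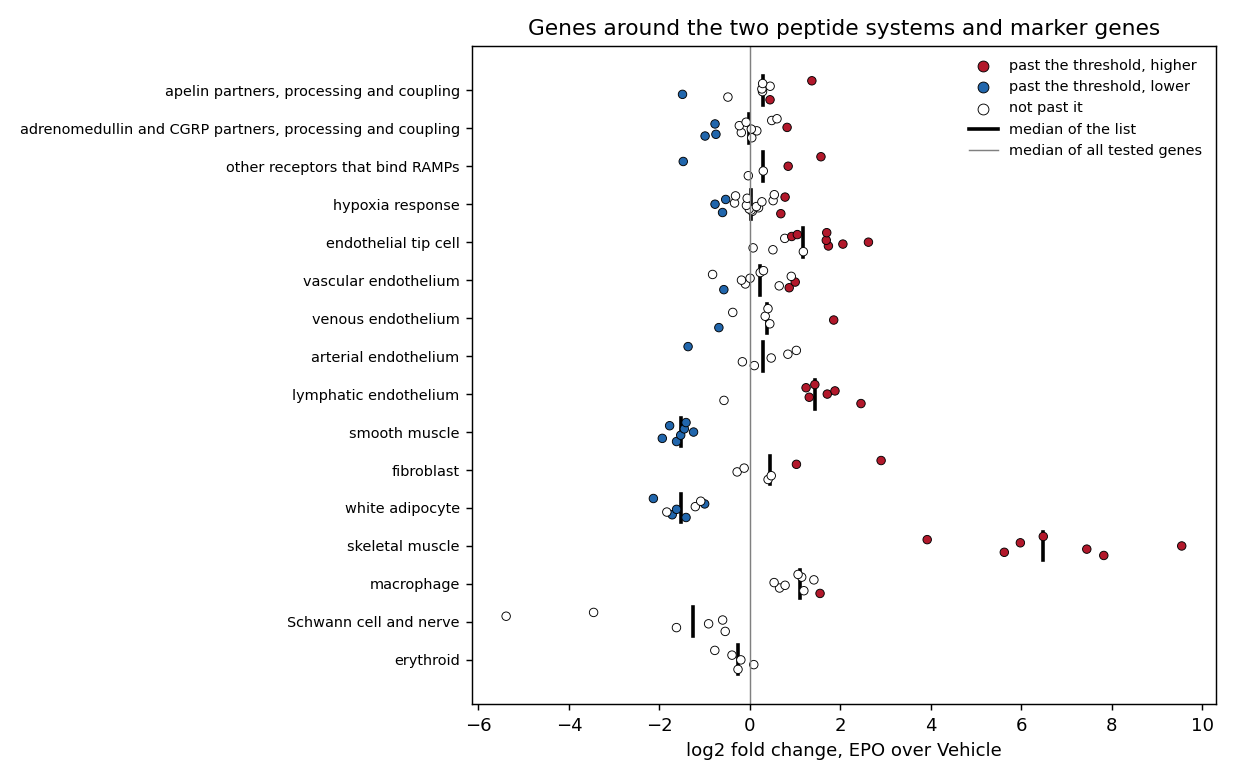
Log2 fold change (EPO over Vehicle) of each tested gene of 16 lists (points, filled where the edgeR adjusted p was under 0.05), with list medians as black bars and the median over every tested gene as a grey line. The tip cell and lymphatic lists lie to the right with medians of 1.18 and 1.44, the hypoxia list is centred near 0, and the smooth muscle and white adipocyte lists lie to the left.

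The genes whose profile over the 6 libraries was most like that of each member were found by the root mean square difference of log2 CPM, each gene centred on its own mean, among 13288 named genes of at least 1 CPM (13289 for Ramp3). The measure is a description, and for Apln, Aplnr, Adm and Ramp1 the difference between the groups weighs most in it. For Calcrl and Ramp2 the spread within groups weighs more. Their SD of log2 CPM within groups was 0.188 and 0.4, beside log2 fold changes of -0.193 and -0.215. Apln was closest to Mki67, a marker of dividing cells (difference 0.280), Myo7a (0.300) and Nxpe5 (0.307). Aplnr was closest to Clca2 (0.236), Tfr2 (0.345), a transferrin receptor, and Itm2a (0.365), a membrane protein. Itm2a had 70.9, 109 and 124 CPM in EPO 1, 2 and 3 against 12.0, 11.3 and 8.32 CPM in Vehicle 1, 2 and 3. Clca2 was scarce in Vehicle 1, 2 and 3, at 0.217, 0.467 and 0.104 CPM, so its match is less certain. The last value is near the limit at 0 counts in Vehicle 3 (0.1075 CPM). Adm was closest to the quinone reductase gene Nqo1 (0.105) and to Dusp8 (0.126).

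Ramp1 was closest to the potassium channel gene Kcnh2 (0.0687), with 77.7, 63.8 and 71.3 CPM in EPO 1, 2 and 3 against 213, 145 and 184 CPM in Vehicle 1, 2 and 3, then to Cnn1 (0.102) and Cytl1 (0.103). Calcrl was closest to Ranbp2 (0.0466), Cpeb1 (0.0476) and Mrpl20 (0.0490), and Ramp2 to Bcl2l1 (0.0713), Pianp (0.0770) and Imp3 (0.0855). Ramp3 was closest to the endothelial tight junction gene Cldn5 (0.173), with 146, 60.1 and 74.3 CPM in EPO against 66.6, 39.7 and 42.6 CPM in Vehicle, then Gpr135 and Gpbar1. Among the members themselves the closest were Calcrl and Ramp2 (0.293), followed by Adm and Ramp1 (0.436) and by Apln and Aplnr (0.599). The farthest apart were Aplnr and Ramp1 (2.40). Genes that vary little lie close by this measure, and Calcrl and Ramp2 had the smallest fold changes of the members. Their highest libraries differed, Vehicle 2 for Calcrl and EPO 1 for Ramp2.

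Over all settings the members kept their signs. The log2 fold change ran from 2.31 to 3.01 for Apln, from 2.79 to 3.63 for Aplnr, from -1.53 to -1.23 for Adm and from -1.57 to -1.27 for Ramp1 over 14 alternatives of scaling, filter, tool, block or libraries left out. It ran from -0.36 to -0.08 for Calcrl, from -0.59 to -0.03 for Ramp2 and from 0.66 to 1.42 for Ramp3. Without EPO 1, 5 of the 7 members were past the threshold, against 4 with all libraries. Of Calcrl, Ramp2 and Ramp3, only Ramp2 then had CPM values that did not overlap between the groups. It was at 42.7 and 47.7 CPM in EPO 2 and 3 and 58.2 to 77.9 CPM in Vehicle (log2 fold change -0.591 without EPO 1). Over all genes, 4281 were past it without EPO 1, against 3804 with all libraries.

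**Figure D5:**
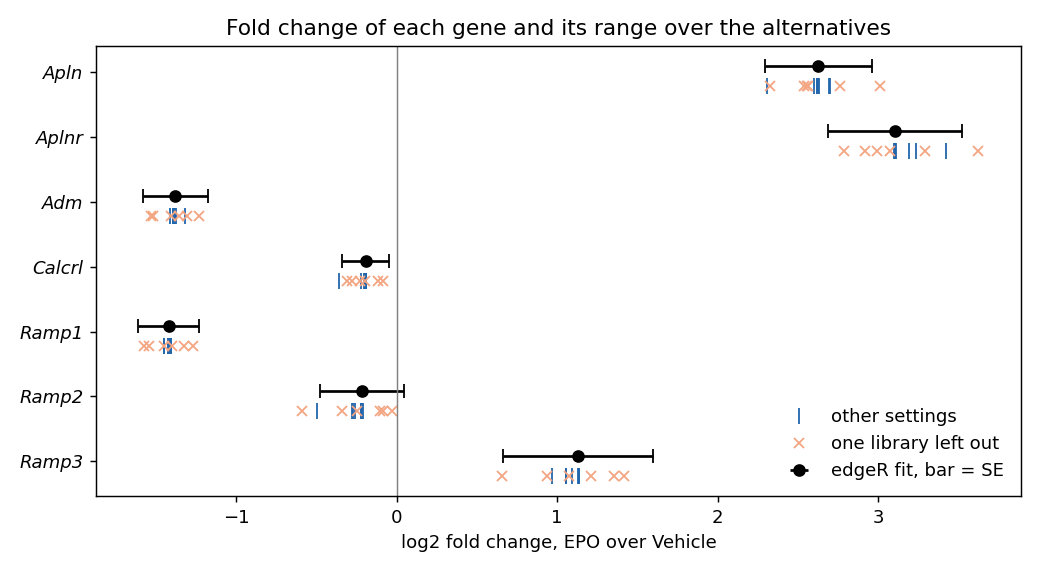
Log2 fold change of each member (EPO over Vehicle) in the edgeR fit (black points, bars are standard errors) and in the alternatives (blue ticks, other settings; orange crosses, 1 library left out). Apln and Aplnr lie above 2 and Adm and Ramp1 below -1 in every alternative, and Ramp2 spreads widest of the genes near 0.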

How the data were processed

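RNA of the whole aorta was sequenced in 3 EPO and 3 Vehicle libraries. Per the labels' protocols, the library kit was NEBNext Ultra. Per the submitters' processing notes, CASAVA 1.8, TopHat2 2.0.6 and build mm10 were named. How reads were counted, with which annotation and with or without strand, is not given in the sources used here. Their table, as the authors deposited it, holds unnormalised counts per Ensembl gene for 47643 genes. Columns abbreviated Con were read as Vehicle. Symbols, positions (GRCm38, the assembly of mm10) and lengths came from GENCODE M21, which matched 47224 IDs.

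Counts were filtered with filterByExpr, scaled by TMM and tested in R 4.3.3 with edgeR 4.0.16 (quasi-likelihood, two-sided, group as the only term, Benjamini-Hochberg over 16522 genes). Genes with an adjusted p under 0.05 are called past the threshold, and only list genes past it are said to rise or fall. Each adjusted p is from edgeR. CPM uses TMM-scaled totals of tested genes. Fold changes with n-fold are ratios of mean CPM, and log2 CPM has a prior count of 2. Each SE is the absolute log2 fold change divided by the square root of edgeR's F statistic, so it restates that test. After the main fit, the same steps were run on simulated counts with known changes, built from the gene means and common dispersion of the real counts. The outcome of that run is not given here. Alternatives were other scalings and filters, DESeq2 1.42.0, limma-voom (limma 3.58.1), the replicate number as a block and libraries left out. The alternative without EPO 1 and EPO 2 has no replication in the EPO group.

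The members and the lists were chosen with earlier results of these data known. Named by rule are all members, up to 3 list genes of smallest p from pathway and endothelial lists, up to 2 from other lists, and the 3 most alike genes per member. A few genes that this rule or the lists name are not reported here. Other genes are named as members that complete a list or did not pass. Upper limits at 0 counts (3 counts) cover counting error only, since PCR copies count as reads.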

Additional observations from a re-analysis of the deposited data

How the results depend on the processing

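Without EPO 1 and EPO 2, where skeletal muscle RNA was highest, 1548 genes were past the threshold against 3804 with all libraries, 1085 of them higher (2133 with all) and 463 lower (1671 with all), and 30 of 130 list genes were past it, against 56. With single libraries left out, the number of genes ran from 1635 (without Vehicle 1) to 4281 (without EPO 1), those higher from 936 to 2265, those lower from 699 to 2016 and the list genes from 36 to 57. The cause was not tested. Ramp3 was not tested under the filter of at least 1 CPM in 3 samples. For 41 genes named from the lists, 484 of 573 values kept their side of the threshold, 70 lost it and 19 gained it. Of these values 0 passed the threshold with the opposite sign.

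With the replicate number as a block, 2884 genes were past the threshold. Same-numbered libraries share only a number: their deviations from the group means correlated by -0.009, -0.01 and 0.127, and not every library correlated best with its own number. Low counts limit Ramp3, the CGRP genes and Apela.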
